A study of Mus musculus with 10 samples.

Results

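The acute phase response is a change in what the liver makes, above all in its plasma proteins, during infection, injury or inflammation. Transcripts of 10 genes grouped as acute phase proteins, Saa1, Saa2, Saa3, Saa4, Orm1, Orm2, Hp, Lcn2, Steap4 and Apcs, were taken by gene symbol from a table of 47729 genes. All 10 had a mean of at least 0.5 FPKM and were among the 12395 genes tested. FPKM counts sequenced fragments scaled to the length of the transcript and to the depth of the library, so levels of different genes can be compared per length.

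The livers came from female mice that lacked Etnppl in the whole body (KO, labelled Etnppl KO) and from wild-type females (WT, labelled Etnppl WT), with 5 libraries of poly(A)-selected RNA per genotype. Etnppl encodes ethanolamine-phosphate phospho-lyase. Mice of both genotypes ate chow for 8 weeks and then, for 10 weeks, a diet with 45% of its energy from fat, so no liver on chow alone entered the comparison. The labels do not give the strain or the part of Etnppl that was deleted. The labels number the samples but do not say that each is a separate animal, and the spread behind every p-value is that between these samples, which may be technical. Depth, estimated from the steps between low FPKM values, was 21000000 to 28100000 fragments per library. Etnppl lay between 7.36 and 10.19 FPKM in the KO libraries and between 27.57 and 56.55 FPKM in the WT libraries, lower in all 5 KO libraries. Hepatocyte markers were abundant, with Alb, the serum albumin gene, at 38646 ± 2795 FPKM in WT (mean ± SD, n = 5). The transcription factor gene of hepatocytes Hnf4a and 9 other hepatocyte markers were likewise all above the filter. In limma 8 of the 12395 genes (0.0645%) had an adjusted p under 0.05.

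The acute phase response is set off in hepatocytes mainly by the cytokines IL-6, acting through the receptor subunit gp130 and the transcription factor STAT3, and IL-1, acting through NF-kB, together with C/EBP factors and glucocorticoids. Saa1 and Saa2 encode inducible serum amyloid A proteins that travel on high-density lipoprotein, Saa3 encodes a form made largely outside hepatocytes, such as in macrophages and fat, and Saa4 encodes a constitutive form. Orm1 and Orm2 encode orosomucoids (alpha-1-acid glycoproteins), which bind drugs and lipids in plasma. Hp encodes haptoglobin, the carrier of free haemoglobin. Lcn2 encodes lipocalin 2, which withholds iron from bacteria by binding their siderophores. Steap4 encodes a membrane metalloreductase that reduces iron and copper and is induced by inflammatory cytokines in fat and liver. Apcs encodes serum amyloid P component, the pentraxin that serves as a major acute phase protein in mice.

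The 4 Saa genes lie together on chromosome 7 (Saa1 at 46740497 to 46742980, minus strand; Saa2 at 46751790 to 46754313, plus strand; Saa3 at 46711998 to 46715700, minus strand; Saa4 at 46727998 to 46732603, minus strand; GRCm38, GENCODE M21), and Saa1 and Saa2 point away from each other with 8809 bases between them. Orm1 (63344560 to 63348163) and Orm2 (63362449 to 63365878) lie on the plus strand of chromosome 4. The others are single genes: Hp on chromosome 8 (109575128 to 109579172, minus strand), Lcn2 on chromosome 2 (32384633 to 32388252, minus strand), Steap4 on chromosome 5 (7960457 to 7982213, plus strand) and Apcs on chromosome 1 (172893961 to 172895041, minus strand). In that annotation no other gene overlaps any of the 10. The reference transcripts of Saa1 and Saa2 were identical at 93.9% of aligned positions and those of Orm1 and Orm2 at 91.0%. How the authors' counting split fragments between such copies is uncertain, so each pair is also given as a sum.

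The promoter windows of Saa1 and Saa2, Orm2 and Steap4 are shown because the first pair varied together across the libraries and the other 2 genes had the lowest p-values among the 10. Each sequence runs 5′ to 3′ on the strand of its gene, from 250 to 51 bases before the RefSeq start (GRCm38.p6). Capitals mark letters that match any of 4 motifs searched on both strands: TTCNNNGAA (STAT), TTGCNNAA (C/EBP), GGGNN followed by TTTCC (NF-kB) and GNACANNN followed by TGTNC (glucocorticoid receptor), with N for any base.
Saa1, chr7:46743031-46743230, minus strand: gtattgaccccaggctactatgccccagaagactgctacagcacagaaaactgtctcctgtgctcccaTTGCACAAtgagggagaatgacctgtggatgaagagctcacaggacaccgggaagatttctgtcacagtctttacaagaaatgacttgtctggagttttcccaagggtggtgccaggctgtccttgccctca
Saa2, chr7:46751583-46751782, plus strand: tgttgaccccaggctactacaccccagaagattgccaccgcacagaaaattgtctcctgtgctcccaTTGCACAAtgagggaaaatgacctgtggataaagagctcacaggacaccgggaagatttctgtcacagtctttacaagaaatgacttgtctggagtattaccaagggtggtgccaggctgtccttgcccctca
Orm2, chr4:63362199-63362398, plus strand: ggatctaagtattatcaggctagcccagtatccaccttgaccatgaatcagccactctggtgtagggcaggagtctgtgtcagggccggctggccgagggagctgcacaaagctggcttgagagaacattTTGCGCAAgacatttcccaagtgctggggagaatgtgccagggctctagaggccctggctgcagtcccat
Steap4, chr5:7960222-7960421, plus strand: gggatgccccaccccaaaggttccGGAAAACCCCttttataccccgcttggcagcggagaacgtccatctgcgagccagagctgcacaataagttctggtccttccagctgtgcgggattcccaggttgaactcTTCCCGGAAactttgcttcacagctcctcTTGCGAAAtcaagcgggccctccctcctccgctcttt

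The Saa1 and Saa2 windows of 250 bases were identical at 94.8% of aligned positions and held the same C/EBP letters, TTGCACAA, at nearly the same distance from the start. Saa1 and Saa3, by contrast, matched at 52.7% of aligned positions. The Orm2 window held TTGCGCAA between 120 and 113 bases before the start. Steap4 was the 1 window of 8 with letters for STAT, NF-kB and C/EBP, which did not overlap each other. Of the 10 genes, 8 had a window in the RefSeq table (Orm1 and Hp did not), and 7 of these 8 held the C/EBP letters within 250 bases, against 9.57% of all 32817 windows. The STAT letters were in 2 of the 8 windows, those of Apcs and Steap4, against 7.01% of all windows. The NF-kB letters were in the Steap4 window and in 1.41% of all windows, and the glucocorticoid receptor letters were in none of the 8 and in 0.387% of all. A match of letters describes the window and does not show binding.

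The 10 transcripts spanned a wide range of levels per length. Averaged over the 10 libraries, Hp was at 3206 FPKM and ranked 35 in the whole table. It was followed by Orm1 at 307 FPKM, Saa4 at 155 FPKM, Apcs at 108 FPKM and Lcn2 at 75.6 FPKM. Steap4 averaged 45.6 FPKM, Saa1 43.2 FPKM, Saa2 36.7 FPKM, Orm2 14.5 FPKM and Saa3 7.31 FPKM. The constitutive Saa4 was thus above the inducible Saa1 and Saa2. Hp was above Orm1, and Orm1 above Saa4, without overlap of their libraries. Steap4 and Saa1 were not separated in this order: Steap4 was the higher in only 4 of 10 libraries. For the other neighbours the order held in 8 to 10 of 10 libraries, although their ranges overlapped.

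Between genotypes, no acute phase gene passed the test: 0 of 10 had a limma adjusted p under 0.05, against 0.0645% of all genes tested (0.0323% higher and 0.0323% lower in KO). At an unadjusted p under 0.05, 2 of 10 were found, Steap4 and Orm2, against 11.8% of all genes tested. Both were lower in KO, as were 9.07% of all genes at that p, and none of the 10 was higher, as 2.69% were. The main scaling gave 334 higher and 1124 lower genes at that p, and scaling by medians of ratios 669 higher and 599 lower, with Steap4 and Orm2 again the 2 of 10. With 1 library left out the count was 1 without WT replicate 1, WT replicate 3 or KO replicate 5, where Orm2 was missing. It was 3 without WT replicate 2, where Saa4 was added. Over all genes, 328 were then higher and 985 lower at that p without WT replicate 1, and 315 and 1158 without WT replicate 3. Without KO replicate 5 these counts were 341 and 1194, and without WT replicate 2 they were 391 and 1045. By sign alone 8 of 10 were lower in KO, against 65.1% of all genes tested, and 2 of 10 were higher, against 34.9%. With median-of-ratios scaling, which moved the median log2 fold change of all genes from -0.05 to about 0, 6 of 10 were lower, against 50.3% of all genes so scaled, Saa3 and Orm1 then having a log2 fold change just above 0. The median log2 fold change (KO minus WT, on the log2(FPKM + 0.5) scale) was -0.13 over the 10 genes and -0.05 over all genes tested. None of the 10 had separate KO and WT ranges, which 2.79% of all genes tested had.

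**Figure D1:**
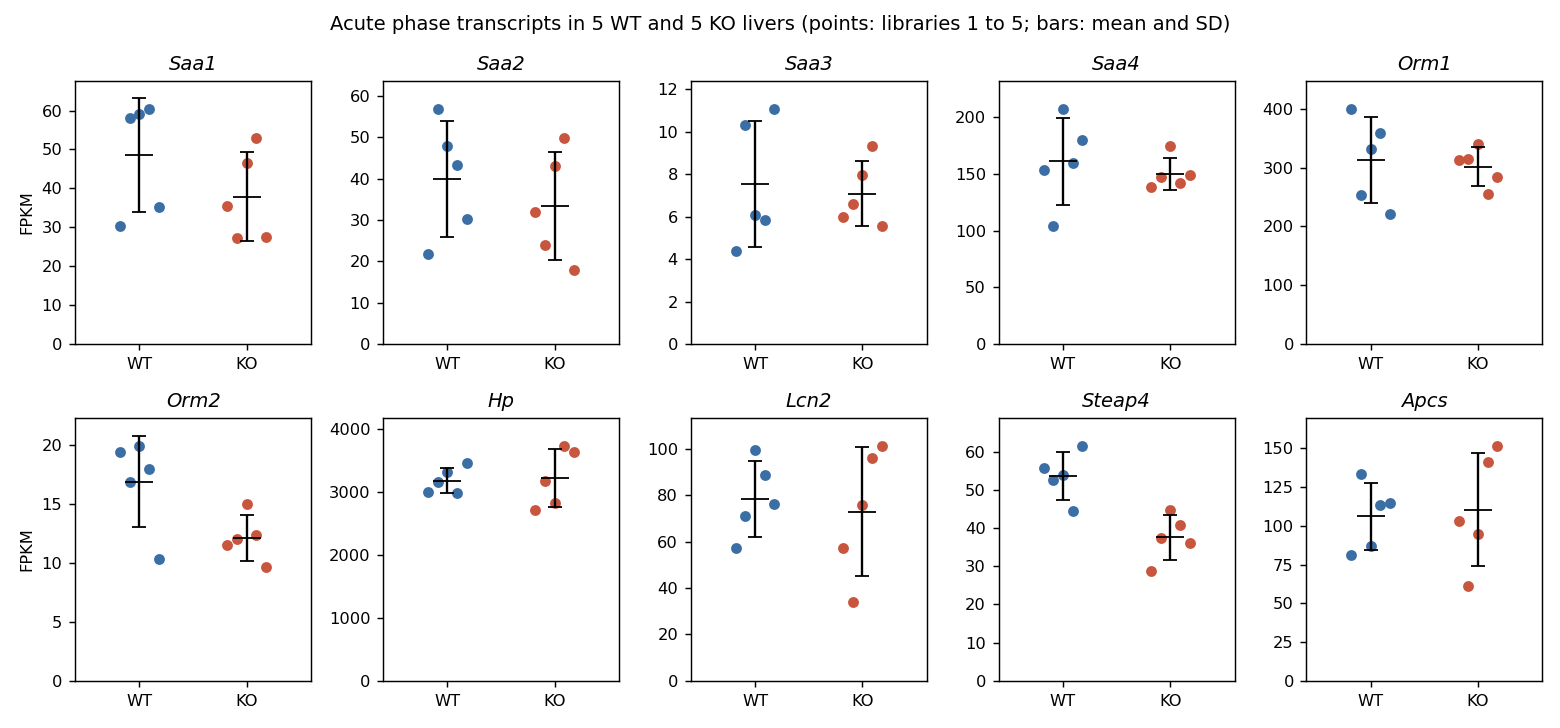
FPKM of the 10 acute phase genes in each of the 5 WT (blue) and 5 KO (red) libraries, with the mean and SD as black bars and every axis from 0. Steap4 has 4 of 5 KO libraries below the lowest WT library, and the other genes overlap more widely.

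Steap4 was lower in KO and had the lowest p of the 10, ranking 58 among the 12395 genes tested. It was at 55.78, 52.56, 53.94, 44.33 and 61.46 FPKM in WT replicates 1 to 5 and at 28.87, 37.47, 44.78, 40.81 and 36.00 FPKM in KO replicates 1 to 5. All 5 KO values were below the WT median and 4 of 5 below every WT value, with KO replicate 3 just above WT replicate 4. The means were 53.6 ± 6.20 and 37.6 ± 5.93 FPKM (SD, n = 5 each), so the KO mean was 70.1% of the WT mean. By the fit the KO livers were 1.43-fold lower (95% CI 1.20 to 1.69). Limma gave p = 0.000601 (adjusted p = 0.128 over all genes, Benjamini-Hochberg) and an exact two-sided permutation test of the log2 values p = 0.0159, where 0.00794 is the smallest that 5 against 5 libraries allow. The adjusted p stayed above 0.05, between 0.112 and 0.236, in all 20 refits at other settings, and the unadjusted p below 0.05 in all 20.

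Steap4 is also expressed by adipocytes and macrophages, and in bulk liver fewer cells of a type and less RNA per cell cannot be told apart. Of 14 macrophage and Kupffer cell markers, 3 were higher and 11 lower in KO, against 65.1% of all genes tested lower. With median-of-ratios scaling 7 were higher and 7 lower, against 50.3% of all genes so scaled lower. None of the 14 passed the test, and their summed level was 485 to 702 FPKM in WT and 438 to 624 FPKM in KO. The adipocyte-defining Adipoq, Plin1 and Cfd were at most 0.53 FPKM in any library and Lep was listed at 0. In the adipocyte list of 8 genes, 2 were above the filter, Car3, which was higher in KO, and Fabp4, which was lower. Fabp4 lay between 5.52 and 14.01 FPKM in WT and between 6.29 and 8.63 FPKM in KO (limma adjusted p = 0.760). The summed level of the list, 533 to 1047 FPKM in WT and 587 to 1250 FPKM in KO, was nearly all Car3, which hepatocytes also express. The part of the macrophage markers in the Steap4 difference was not tested.

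Of the orosomucoid pair, the less abundant Orm2 was lower in KO by unadjusted p, and Orm1 was close to equal. Orm2 was at 19.46, 16.89, 19.94, 17.94 and 10.33 FPKM in WT replicates 1 to 5 and at 11.54, 12.03, 15.04, 12.34 and 9.70 FPKM in KO replicates 1 to 5. WT replicate 5 lay among the KO values, and the other 4 WT libraries were above every KO library. The means were 16.9 ± 3.87 and 12.1 ± 1.92 FPKM (SD, n = 5 each), a log2 fold change of -0.44 (SE 0.17) with p = 0.0209 and adjusted p = 0.311 in limma, and an exact two-sided permutation p = 0.0556. Without WT replicate 5 the log2 fold change was -0.60 (limma adjusted p = 0.110), and without KO replicate 5 it was -0.37 (limma adjusted p = 0.415). The unadjusted p of Orm2 was below 0.05 in 17 of 20 refits at other settings. At these levels the values rest on an estimated 106 to 256 fragments per library. That gives a counting error of about 6.25% to 9.72%, less than the spread between replicates. This error does not include the split of fragments between Orm1 and Orm2, which is uncertain.

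Orm1 was at 399.14, 254.30, 331.51, 358.61 and 220.76 FPKM in WT replicates 1 to 5 and at 313.37, 315.28, 339.93, 254.34 and 283.76 FPKM in KO replicates 1 to 5. The KO values all lay inside the WT range. The log2 fold change was -0.03 (95% CI -0.35 to 0.30; limma adjusted p = 0.962), and the sum of Orm1 and Orm2 gave -0.05 (limma adjusted p = 0.930). Within each library Orm2 was 5.44 ± 0.846% of Orm1 in WT and 4.04 ± 0.586% in KO (SD, n = 5 each). This ratio, which does not depend on library scaling, was formed after Orm2 was seen lower and Orm1 not, so it restates those values and is given without a test. In 4 of 5 KO libraries it lay below every WT library.

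**Figure D2:**
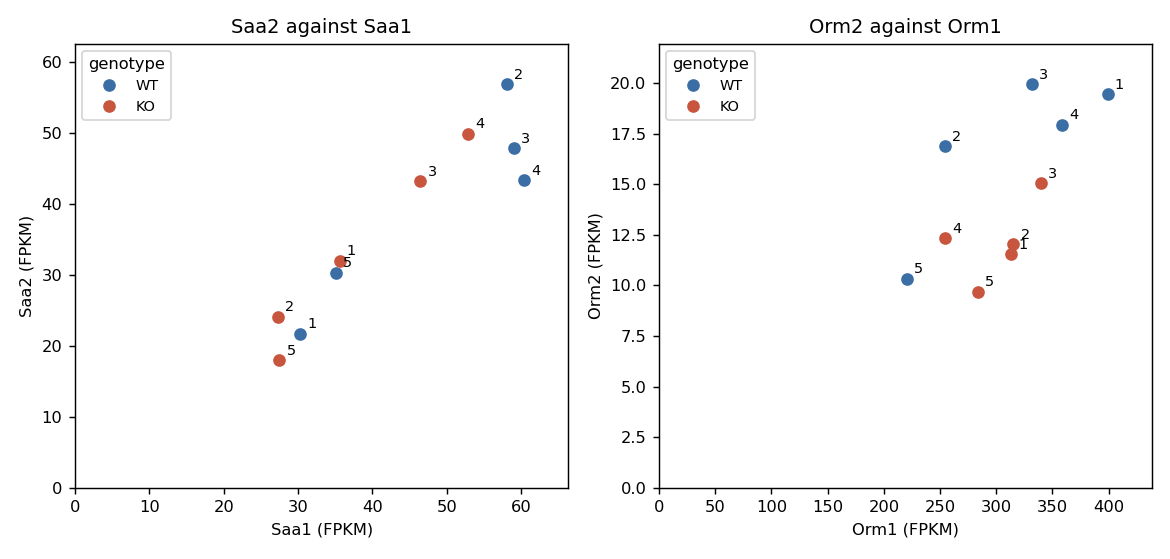
FPKM of Saa2 against Saa1 (left) and of Orm2 against Orm1 (right), 1 point per library, WT in blue and KO in red, numbered by replicate, both axes from 0. Saa1 and Saa2 lie close to 1 line in both genotypes, while at a given Orm1 level the KO libraries tend to have less Orm2, with a mean of 4.04% of Orm1 against 5.44% in WT.

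The inducible Saa1 and Saa2 varied by 2.21 and 3.17 times between the lowest and highest of the 10 libraries, with the genotypes intermixed. Saa1 was at 30.24, 58.09, 59.06, 60.34 and 35.13 FPKM in WT replicates 1 to 5 and at 35.58, 27.27, 46.44, 52.83 and 27.48 FPKM in KO replicates 1 to 5. Saa2 was at 21.72, 56.80, 47.81, 43.31 and 30.29 FPKM in WT and at 31.98, 24.09, 43.14, 49.84 and 17.94 FPKM in KO, in the same replicate order. WT replicates 2 to 4 and KO replicates 3 and 4 were high for both genes, and WT replicate 1 and KO replicates 2 and 5 were low for both. The log2 fold change was -0.35 for Saa1 (95% CI -0.91 to 0.22; limma adjusted p = 0.639) and -0.27 for Saa2 (95% CI -1.01 to 0.47; limma adjusted p = 0.790). Their sum gave -0.31 (SE 0.29, limma adjusted p = 0.719). These intervals reach from 1.88-fold lower to 1.16-fold higher for Saa1 and from 2.02-fold lower to 1.38-fold higher for Saa2, and differences within them are not excluded.

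Saa3 lay between 4.38 and 11.06 FPKM in WT (median 6.10) and between 5.57 and 9.31 FPKM in KO (median 6.58), all KO values inside the WT range. Its log2 fold change was -0.03 (95% CI -0.54 to 0.49; limma adjusted p = 0.976) and turned positive in 7 of 20 refits. The constitutive Saa4 lay between 104 and 207 FPKM in WT and between 138 and 174 FPKM in KO, again inside the WT range (log2 fold change -0.07, limma adjusted p = 0.889). Its WT spread was set partly by WT replicate 2, the lowest library at 104.01 FPKM. Without that library the log2 fold change was -0.22 (limma adjusted p = 0.409), and without WT replicate 3, the highest, it was 0.03. The coefficient of variation of Saa4 was 23.6% in WT and 9.46% in KO.

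Hp, the most abundant of the 10, lay between 2991 and 3462 FPKM in WT and between 2722 and 3738 FPKM in KO. Its coefficient of variation was the lowest of the 10 in WT, at 6.39%, but in KO, at 14.4%, it was above those of Saa4 and Orm1 (9.46% and 10.9%). Its highest libraries were KO replicates 4 and 5 and its lowest KO replicates 1 and 3, so the KO range enclosed the WT range. The log2 fold change was 0.01 with a 95% CI of -0.20 to 0.21 (limma adjusted p = 0.986), the narrowest interval among the 10.

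Lcn2 and Apcs were more spread in KO than in WT, with coefficients of variation of 38.1% against 20.8% for Lcn2 and 33.1% against 20.3% for Apcs. Lcn2 was at 57.03, 71.09, 99.43, 88.63 and 75.96 FPKM in WT replicates 1 to 5 and at 57.32, 34.13, 75.56, 95.94 and 101.16 FPKM in KO replicates 1 to 5. Apcs was at 81.31, 133.68, 87.24, 113.17 and 114.92 FPKM in WT and at 103.33, 61.28, 94.85, 141.24 and 151.52 FPKM in KO, in the same replicate order. For both genes KO replicate 2 was the lowest of all 10 libraries and KO replicate 5 the highest. The log2 fold change was -0.18 for Lcn2 (95% CI -0.82 to 0.46; limma adjusted p = 0.845) and 0.01 for Apcs (95% CI -0.52 to 0.54; limma adjusted p = 0.990). Without KO replicate 2 that of Lcn2 was 0.06.

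**Figure D3:**
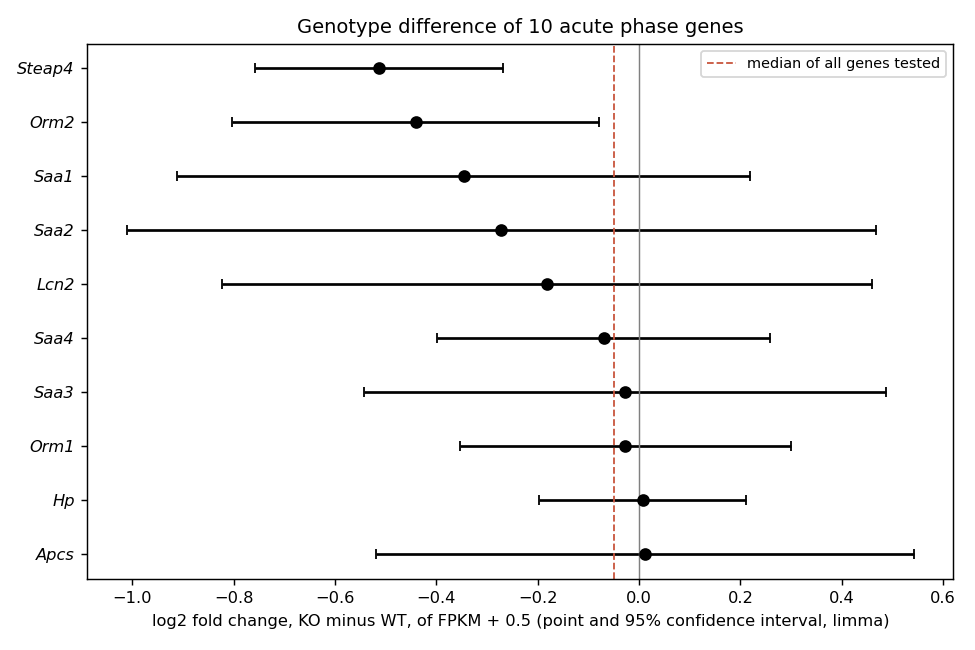
Log2 fold change (KO minus WT, of FPKM + 0.5) of the 10 acute phase genes with 95% confidence intervals from limma. The grey line marks 0 and the dashed line the median of all genes tested, -0.05, and only the unadjusted intervals of Steap4 and Orm2 lie wholly below 0.

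Lcn2 and Saa3 are also made by neutrophils and macrophages. Of 13 neutrophil markers 4 passed the filter, 1 higher and 3 lower in KO, against 65.1% of all genes tested lower. None passed the test, and the summed level of the 13 was 4.15 to 29.18 FPKM in WT and 4.69 to 10.98 FPKM in KO. WT replicate 1 held the highest sum, with S100a9 at 13.27 FPKM, and had the lowest WT values of Lcn2 and Saa3. The part of neutrophil RNA in the Lcn2 and Saa3 values was not tested. The granule genes Mpo, Elane, Ngp, Camp and Ltf were at most 0.71 FPKM in any library.

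The 10 genes did not vary as 1 block across the libraries. Over their 45 pairs the median Pearson r of the log2 values was 0.22, and 29 of 45 were above 0. The pair Saa1 and Saa2 had r = 0.95 over the 10 libraries (permutation p = 0.0002, adjusted p = 0.0090 over 45 pairs) and Spearman's rho = 0.85 (permutation p = 0.00302, adjusted p = 0.136). It was the 1 pair past an adjusted p of 0.05 by Pearson's r, and none passed by rho. Its r was 0.97 without the 2 libraries farthest from the median of Saa1 and 0.95 after removal of the genotype means. Fragments shared between such alike transcripts can contribute to this value, which was not tested.

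Saa3 and Orm1 ran opposite to each other, with r = -0.85 (permutation p = 0.0023, adjusted p = 0.0517) and rho = -0.71 (permutation p = 0.0266, adjusted p = 0.501), short of the threshold, and r = -0.68 without the 2 farthest libraries. Lcn2 and Apcs had r = 0.75 (permutation p = 0.0122, adjusted p = 0.183) and rho = 0.64 (permutation p = 0.0537, adjusted p = 0.501). For this pair r was 0.32 without the 2 libraries farthest from the median of Lcn2 and 0.77 after removal of the genotype means. Leaving out the extreme libraries also narrows the range, so the lower r does not show that the relation rested on them. Orm1 and Orm2 had r = 0.62 and rho = 0.62 (permutation p = 0.0585 and 0.0619, adjusted p = 0.516 and 0.501), with r = 0.36 without the 2 libraries farthest from the median of Orm1 and r = 0.76 once genotype means were removed.

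**Figure D4:**
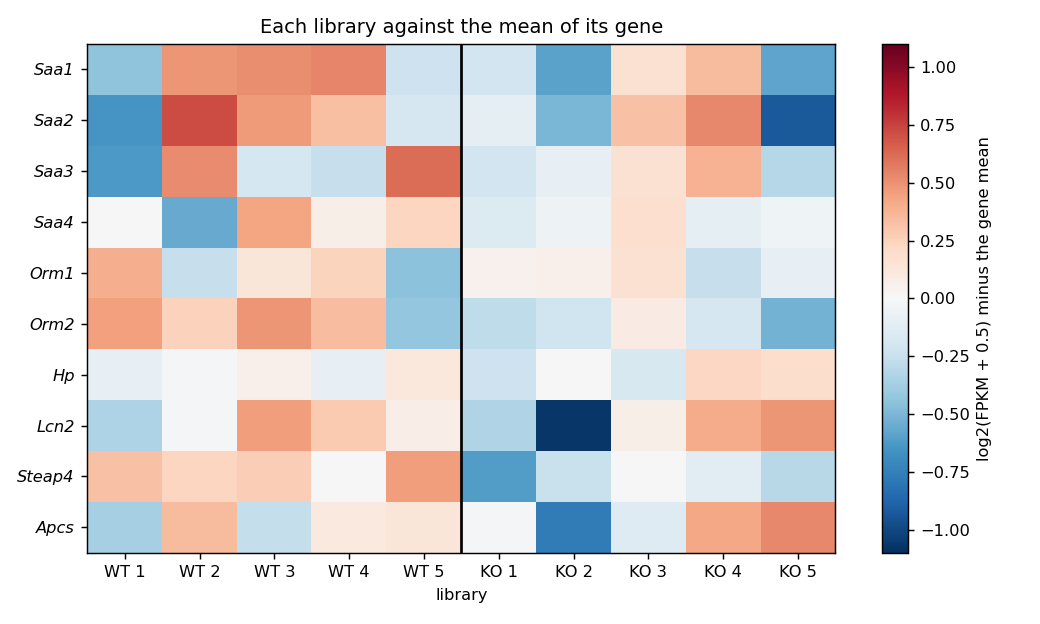
Difference of each library from the mean of its gene on the log2(FPKM + 0.5) scale, red above and blue below, for the 10 genes (rows) in the 5 WT and 5 KO libraries (columns, divided by the black line). The Saa1 and Saa2 rows share their pattern, KO replicate 2 is lowest for Lcn2 and Apcs, and Steap4 has its lowest values in KO.

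By Pearson's r with the mean standardised level of the 10 genes, over the same 10 libraries, the most similar other genes were Gtf2a1, which encodes a general transcription factor subunit (r = 0.93), Nrg4, a growth factor of the neuregulin family (r = 0.92), Zmym2, a zinc finger gene (r = 0.91), Cast, the calpain inhibitor calpastatin (r = 0.91), and Pdzd8, a gene of endoplasmic reticulum contact sites (r = 0.90). They were picked for this likeness among all genes tested, so their r is a description without a test.

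Other genes of the acute phase response were counted from lists, and none of their members passed the test in either direction. The lists were chosen with earlier results of these data known, so their counts are descriptions. Among 28 further positive acute phase genes, 27 passed the filter, 14 higher and 13 lower in KO, against 34.9% and 65.1% of all genes tested. Median-of-ratios scaling gave 18 higher and 9 lower, against 49.7% and 50.3% of all genes so scaled. The median log2 fold change at the main scaling was 0.01, against -0.05 for all genes tested. Before adjustment, at p under 0.05, 1 was higher and 4 were lower, against 2.69% and 9.07% of all genes tested. Fgl1, a fibrinogen-like protein secreted by hepatocytes, averaged 413 ± 65.2 FPKM in WT livers against 304 ± 43.0 in KO livers (limma adjusted p = 0.178). Lrg1, a leucine-rich plasma glycoprotein, was at 970 ± 48.4 and 789 ± 103 FPKM (limma adjusted p = 0.195). Its KO libraries were all below the WT libraries, and 2.79% of all genes tested had separate ranges in either direction. Itih4, an inter-alpha-trypsin inhibitor heavy chain, was at 1001 ± 93.8 and 849 ± 44.9 FPKM (limma adjusted p = 0.224). The serpin Serpina3m was the 1 on the higher side, at 331 ± 36.7 and 397 ± 31.4 FPKM (limma adjusted p = 0.228), and belongs to a family of similar copies whose fragments may be split uncertainly.

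Negative acute phase genes, whose transcripts go down during an acute phase response, were more often higher than lower in KO. At the main scaling 9 of 11 were higher, against 34.9% of all genes tested, with a median log2 fold change of 0.10. With median-of-ratios scaling it was 9 of 11, against 49.7% of all genes so scaled, and with quantile normalization 7 of 11, against 48.3%. At an unadjusted p under 0.05, 1 was higher and none lower at the main scaling, against 2.69% and 9.07% of all genes. Median-of-ratios scaling gave 4 higher at that p, against 5.4%, and quantile normalization 2, against 5.2%. Ahsg, which encodes fetuin-A, had the lowest p of these with 6796 ± 695 FPKM in WT livers against 8274 ± 1068 in KO livers (limma adjusted p = 0.266). The apolipoprotein gene Apoa1 was at 9851 ± 1951 and 11798 ± 1784 FPKM (limma adjusted p = 0.459) and the retinol carrier gene Rbp4 at 3683 ± 243 and 4001 ± 266 FPKM (limma adjusted p = 0.521). Serpina6, the corticosteroid carrier, was on the other side at 147 ± 15.8 and 127 ± 23.8 FPKM (limma adjusted p = 0.499). The hepatocyte markers share Alb, Ttr, Ahsg and Apoa1 with this list. Of 11 such markers, 10 were higher in KO at the main and the median-of-ratios scaling, against 34.9% and 49.7% of all genes. Quantile normalization gave 9 higher, against 48.3%. None passed the test. At an unadjusted p under 0.05, 3 were higher and none lower at the main scaling, against 2.69% and 9.07% of all genes. Median-of-ratios scaling gave 5 higher at that p, against 5.4%, and quantile normalization 4, against 5.2%. The summed level of the markers was 60249 to 72072 FPKM in WT and 68247 to 79420 FPKM in KO. The part of this hepatocyte marker difference in the negative acute phase values was not tested. Of these markers Tat, a tyrosine-degrading enzyme, had the lowest p, at 459 ± 65.4 and 945 ± 338 FPKM (limma adjusted p = 0.126), and the urea cycle gene Cps1 followed at 603 ± 56.9 and 863 ± 197 FPKM (limma adjusted p = 0.199).

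In the signalling lists, 18 of 19 IL-6 family and STAT3 pathway genes passed the filter, 6 higher and 12 lower in KO, or 7 and 11 with median-of-ratios scaling (median log2 fold change -0.11), against 65.1% of all genes lower at the main scaling and 50.3% at the other. At an unadjusted p under 0.05, 3 were lower, against 9.07% of all genes, and none was higher, against 2.69%. With median-of-ratios scaling 1 was higher at that p, against 5.4% of all genes so scaled, and 3 were lower, against 4.83%. With quantile normalization 2 were higher, against 5.2% of all genes so scaled, and 3 were lower, against 5.48%. The lowest p belonged to Cish, a cytokine-inducible inhibitor of signalling, with 5.51 ± 1.53 FPKM in WT livers against 3.30 ± 0.993 in KO livers (limma adjusted p = 0.255). Il10rb, a receptor subunit, was at 6.97 ± 0.924 and 5.70 ± 0.668 FPKM (limma adjusted p = 0.325), and Pias3, an inhibitor of STAT3, at 4.73 ± 0.816 and 3.63 ± 0.702 FPKM (limma adjusted p = 0.365). Socs3, a STAT3 target that damps IL-6 signalling, was at 5.97 ± 1.84 and 4.29 ± 1.11 FPKM (limma adjusted p = 0.427). For IL-1, TNF and NF-kB, 25 of 27 genes passed the filter, 9 higher and 16 lower, against 65.1% of all genes lower. Median-of-ratios scaling gave 13 higher and 12 lower, against 50.3% of all genes so scaled lower. None had an unadjusted p under 0.05 at the main scaling, against 11.8% of all genes tested. Their median log2 fold change of -0.05 equalled that of all genes. The interleukin 1 receptor gene Il1r1 came first there, with 6.51 ± 2.11 FPKM in WT livers against 9.63 ± 3.41 in KO livers (limma adjusted p = 0.485).

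Of 16 liver transcription factor genes listed for acute phase promoters, 4 were higher and 12 lower in KO, or 6 and 10 with median-of-ratios scaling (median log2 fold change -0.11), against 65.1% of all genes lower at the main scaling and 50.3% at the other. With median-of-ratios scaling 2 of the lower ones had an unadjusted p under 0.05, against 4.83% of all genes so scaled. With quantile normalization it was also 2, against 5.48%. At the main scaling 3 of the lower ones had such a p, against 9.07% of all genes tested. These were Crebl2, Onecut1 and Nr3c1. Crebl2, a bZIP gene whose place at these promoters is less certain, was at 15.5 ± 0.439 and 13.2 ± 0.327 FPKM (limma adjusted p = 0.162). Its KO and WT ranges did not overlap, as for 2.79% of all genes tested. Onecut1, the hepatocyte factor HNF6, was at 7.37 ± 0.860 and 5.30 ± 1.47 FPKM (limma adjusted p = 0.261). Nr3c1, the glucocorticoid receptor, was at 17.2 ± 1.46 and 14.8 ± 1.54 FPKM (limma adjusted p = 0.338). Of 21 receptors and partners of acute phase proteins, 17 passed the filter, 8 higher and 9 lower, against 65.1% of all genes lower. Median-of-ratios scaling gave 9 higher and 8 lower, against 50.3% of all genes so scaled lower. At an unadjusted p under 0.05, 3 were higher, against 2.69% of all genes tested, and none was lower, against 9.07%. Median-of-ratios scaling and quantile normalization each gave 4 higher at that p, against 5.4% and 5.2% of all genes so scaled. Scarb1, a high-density lipoprotein receptor that also takes up serum amyloid A, averaged 76.3 ± 7.59 FPKM in WT livers against 91.8 ± 8.30 in KO livers (limma adjusted p = 0.223). Cd163, the macrophage receptor for haptoglobin bound to haemoglobin, was at 7.80 ± 1.62 and 10.8 ± 2.39 FPKM (limma adjusted p = 0.293), and the asialoglycoprotein receptor subunit Asgr2 at 168 ± 6.46 and 189 ± 14.8 FPKM (limma adjusted p = 0.324).

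**Figure D5:**
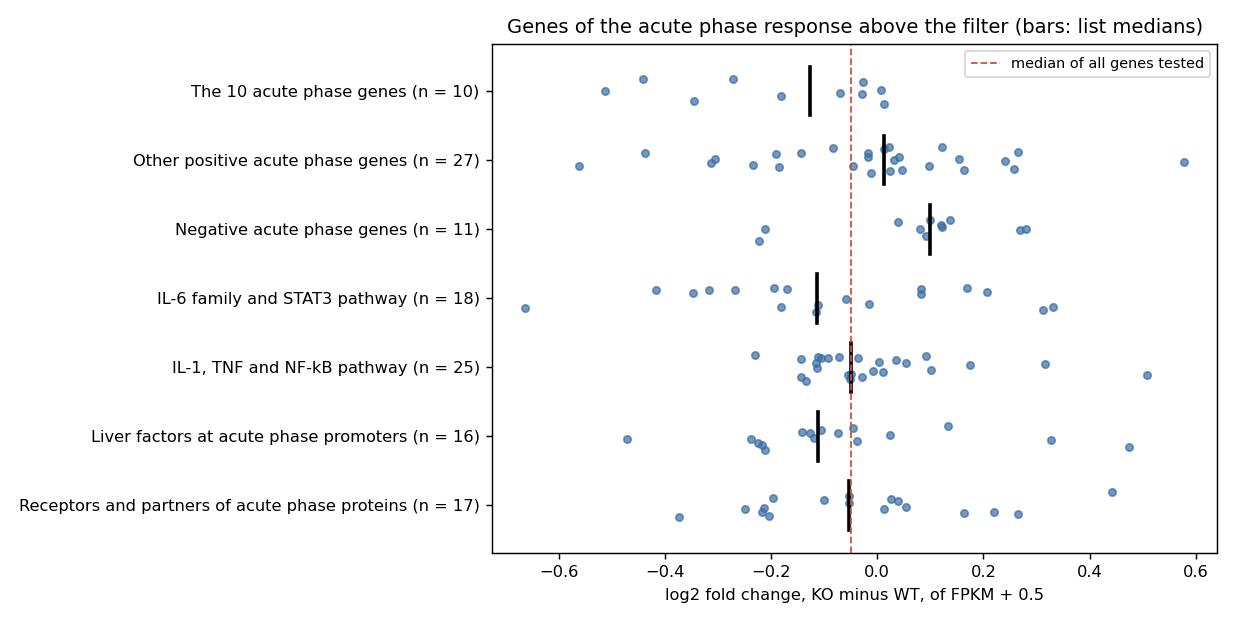
Log2 fold changes (KO minus WT, of FPKM + 0.5) of the genes above the filter in 7 lists, 1 point per gene, with the list median as a black bar and the median of all genes tested, -0.05, as the dashed line. List medians lie between -0.13 for the 10 acute phase genes and 0.10 for the negative acute phase genes.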

How the data were processed

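Poly(A)-selected liver RNA of 5 WT and 5 KO samples was sequenced, 1 library each. The authors deposited FPKM per gene, 1 column per library, matched to the labels by the library names. The build mm10 and the tools DESeq, DESeq2, R 4.0.2, RSEM and STAR are listed per the submitters' processing notes. The sources used here give neither their roles nor the annotation or strand setting. Since the deposited table holds FPKM and no counts, log-scale models were used. Depth came from single-transcript genes of 350 to 1000 bases, where 93.1% to 96.6% of low values lay within 0.1 fragment of a whole number.

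Tests used log2(FPKM + 0.5). Genes whose mean reached 0.5 FPKM (12395) were tested, KO against WT, with limma 3.58.1 in R 4.3.3 (trend, robust prior, two-sided, Benjamini-Hochberg adjustment over all genes, threshold 0.05). Such fold changes understate those of low genes. On simulated data of 12395 genes with 200 changed, this KO against WT test recovered 62.5% of 1.5-fold and 92.5% of 2-fold changes. Of its calls, 6.72% and 4.64% were false. The recovered shares average over all genes, while the SE of the 10 members ran from 0.09 for Hp to 0.33 for Saa2. Adjustment is also less strict with 200 changed genes, and 8 were called in these data. The shares therefore do not give the recovery for the 10 members. Exact permutation tests covered all 252 splits, and correlations used 100000 permutations. Positions are from GENCODE M21 (GRCm38) and promoter windows from RefSeq (GRCm38.p6). Named genes were Etnppl, the 10 members, up to 4 of lowest p in each list and the 5 most similar genes. Some list genes are named by their level only (Alb, Hnf4a, the markers near 0). Orm3 and the ratios were chosen after their values were seen. Members and lists were chosen with earlier results of these data known.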

Additional observations from a re-analysis of the deposited data

How the results depend on the processing

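No acute phase gene passed an adjusted p of 0.05 in any of the 20 refits of each gene at other settings. Steap4, Orm2, Saa1 and Saa2 were lower in KO in all 20, with log2 fold changes of -0.58 to -0.42, -0.60 to -0.37, -0.50 to -0.24 and -0.47 to -0.08. The direction of the 6 others turned in some. With median-of-ratios scaling Saa3 was at 0.025, Orm1 at 0.029 and the sum of Orm1 and Orm2 at 0.0096. With quantile normalization Saa3 was at 0.021 and Hp at -0.033, and with array weights Saa3 was at 0.058. With 1 library left out, the values ran from -0.19 to 0.12 for Saa3, from -0.22 to 0.029 for Saa4, from -0.14 to 0.069 for Orm1, from -0.17 to 0.048 for Orm1 plus Orm2, from -0.049 to 0.065 for Hp, from -0.33 to 0.063 for Lcn2 and from -0.12 to 0.21 for Apcs. The cause was not tested. Over all genes, the 8 calls (4 higher, 4 lower) became 5 with no filter, 5 with no trend and no robust prior, 18 with array weights, 30 at an adjusted p of 0.1 and 4 to 18 with 1 library left out, the highest without WT replicate 2. With median-of-ratios scaling the calls were 5 higher and 2 lower. The replicate numbers are not stated to pair the samples, and same-numbered libraries deviated together with r of -0.02 to 0.20, 2 of 5 pairs correlating best with their own number. With the replicate number as a block, 5 genes passed and none of the 10 did (Steap4 adjusted p = 0.172, Orm2 0.163).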

Other observations

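Orm3, the orosomucoid gene that lies between Orm1 and Orm2 on chromosome 4 (63356162 to 63359511, plus strand, GRCm38), was looked at after its values were seen. It averaged 2.05 ± 1.03 FPKM in WT livers against 3.06 ± 0.661 in KO livers (SD, n = 5 each; log2 fold change 0.58, limma adjusted p = 0.448), and so differed in the other direction from Orm2 without passing the test. Its values, 0.71 to 2.95 FPKM in WT and 2.49 to 4.10 FPKM in KO, rest on fewer fragments than those of Orm2. Within each library Orm3 was 4.20% to 15.2% of Orm2 in WT and 20.2% to 31.2% in KO. Of Orm1 it was 0.279% to 0.833% in WT and 0.790% to 1.21% in KO, with overlapping ranges. The ratios were formed after these values were seen, so they restate them and are given without a test. The transcripts of Orm2 and Orm3 were identical at 88.3% of aligned positions and those of Orm1 and Orm3 at 86.4%. How fragments were split among the 3 genes is uncertain. Whether that split contributes to the ratios was not tested.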
